A study of Caenorhabditis elegans with 2 samples.

Results

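The genes described here are 10 components of insulin and TOR signalling in *Caenorhabditis elegans*: daf-2, age-1, pdk-1, akt-1, akt-2, sgk-1, daf-18, let-363, daf-15 and rict-1. They were found by matching the sequence names in the deposited tables to their WormBase symbols, dropping the isoform letter and summing the uniquely mapped reads of a gene. Of the 10 members, 9 were listed with at least 1 read, out of 8730 genes with reads in all, and 5 reached 50 reads in a library. let-363, which encodes the TOR kinase itself, was listed in neither library and has no value. Expression was measured by mRNA sequencing of whole young adults in 2 libraries, 1 from the wild-type strain N2 Bristol and 1 from strain KU25, a mutant with the deletion pmk-1(km25) in the gene of the p38 MAP kinase PMK-1. Both populations were grown at 20 °C on *Escherichia coli* OP50 and were then held at 35 °C for 5 h, so every value describes heated worms. The question of the series is the influence of this kinase on the heat stress response, and unheated worms were not analysed here.

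In the insulin pathway of the worm, insulin-like peptides act on the receptor DAF-2, which activates the phosphatidylinositol 3-kinase AGE-1. The lipid that AGE-1 makes recruits the kinases PDK-1, AKT-1 and AKT-2, and the phosphatase DAF-18 removes that lipid. Active AKT kinases keep the FOXO transcription factor DAF-16 out of the nucleus, and loss of DAF-2 or AGE-1 function is known to lengthen life and to raise resistance to heat. The TOR kinase LET-363 works in a first complex with DAF-15, the worm Raptor, which promotes translation and growth. It also works in a second complex with RICT-1, the worm Rictor, which acts through the kinase SGK-1 in the control of fat and growth.

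Uniquely mapped reads came to 5.78 M in the wild-type library and 5.23 M in that of the mutant. With 1 library per genotype there is no replicate error and no test of genotype, and nothing here separates the genotype from any other difference between these libraries. Intervals are exact 95% intervals that cover counting error only and treat reads as independent molecules, which reads without molecular identifiers need not be. Ratios are of the mutant over the wild type in CPM, the unique reads per 1 M reads of that library. Genes were called where at least 1 of the libraries held 50 reads, the difference was 2-fold or more and 1 lay outside the interval. The median log2 ratio of the 5197 genes at that level was -0.33, so a gene near that value lies with the middle of all genes. The libraries also differed in tissue markers: 15 of 18 oogenic germline markers were listed, all at 50 reads or more, with a median log2 ratio of -0.81 and a summed level of 20730 CPM in N2 and 12026 CPM in KU25. The 30 somatic markers at that level had a median log2 ratio of 1.13, although the defining muscle genes myo-3 and unc-54 were listed in neither library. They pool muscle, pharynx, neuron, intestine and hypodermis, and these tissues were not alike. The median was 1.249 for 9 muscle genes and 0.297 for 4 hypodermis genes. Of those 4, intervals lay above 1 for 2, sqt-3 lay at 0.0009 and lin-26 lay at -0.89, with an interval below 1. The 11 listed of 14 sperm markers summed to 33.5 CPM in N2 and 358 CPM in KU25. No reads of pmk-1 itself were listed, so the deletion was not checked here.

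The 5 members with 50 reads or more were all lower in the mutant library, by less than 2-fold, and the largest difference was in daf-18. Their log2 ratios ran from -0.78 to -0.33 with a median of -0.57, which is -0.23 relative to the median of all genes. None of the 5 was called in either direction, where 1.75% of all genes were called at least 2-fold lower and 17.6% at least 2-fold higher. At a threshold of 1.5-fold, 2 of the 5 were lower (daf-18 and age-1) and 0 higher, against 27.6% and 25% of all genes. Intervals lay below 1, at any size, for 5 of 5 members and for 53.6% of all genes, and above 1 for 0 of 5 and for 30.2%. The exception among the listed members was akt-2, with more reads in the mutant but under 50 in both libraries.

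**Figure D1:**
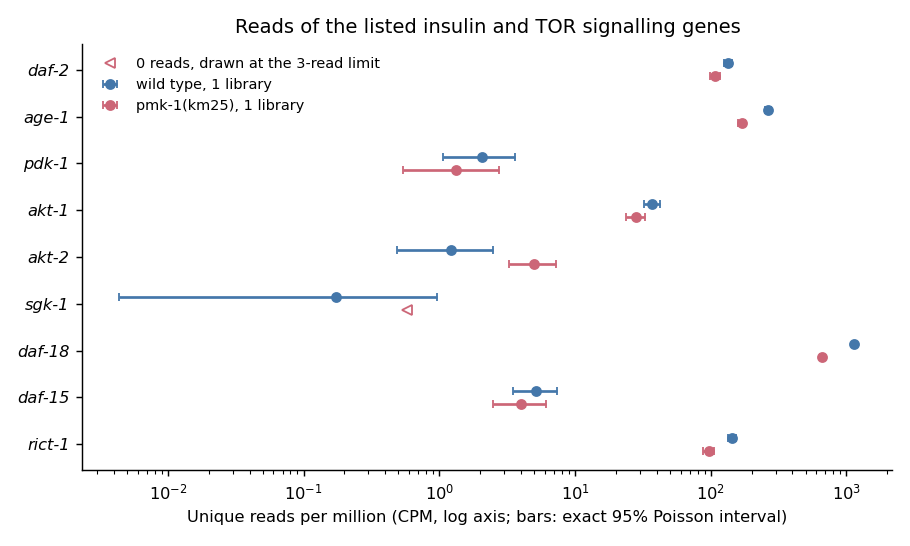
Unique reads scaled to 1 M (CPM) in the wild-type (blue) and pmk-1(km25) (red) library for the 9 listed members, on a log axis, with exact 95% Poisson intervals; the open triangle marks sgk-1, with 0 reads in the mutant, at the 3-read limit. daf-18, age-1, rict-1, daf-2 and akt-1 lie lower in the mutant and akt-2 lies higher; values are to be compared between libraries within a gene, since genes differ in countable length.

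daf-2 (Y55D5A.5, chromosome III), the insulin and IGF-1 receptor gene, had 779 wild-type reads and 560 mutant reads, which is 135 and 107 CPM. The mutant value was 1.26-fold lower (interval 1.13 to 1.40), and its log2 ratio of -0.33 equals the median of all genes to 2 decimals. Scaled so that the median of all genes is near 0, daf-2 therefore showed no direction (log2 ratio 0.01). Nearly all of these reads fell on isoform a, with 769 and 552 reads, while isoform b had 10 and 8. Isoform b thus took 1.28% of daf-2 reads in the wild type (Clopper-Pearson interval 0.617 to 2.35) and 1.43% in the mutant (0.619 to 2.80), shares whose intervals overlap. Wild-type reads covered 50.5% of the listed isoform a and mutant reads 50.7%, so in each library a large part of the receptor sequence gave no unique reads. Of the listed isoform b they covered 7.5% and 7.2%. The shares above are therefore shares of reads and do not give the relative abundance of the isoforms.

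age-1 (B0334.8, chromosome II), the catalytic subunit of the phosphatidylinositol 3-kinase, had 1540 reads against 882, or 266 and 169 CPM. It was 1.58-fold lower in the mutant (1.45 to 1.72), a log2 ratio of -0.66. Its reads covered 99.6% and 99.1% of the listed sequence, so this value rests on the whole coding sequence. aap-1, which encodes the adaptor subunit of the same kinase, had 1372 reads against 853, a 1.45-fold lower value (1.33 to 1.59). Reads of the catalytic and adaptor genes stood at 1.12 to 1 in the wild type and 1.03 to 1 in the mutant, and the ratio of these ratios was 0.92 with an interval that held 1 (0.816 to 1.04).

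daf-18 (T07A9.6, chromosome IV), the gene of the phosphatase that counteracts AGE-1, had the most reads of the listed members in both libraries. It had 6596 wild-type reads and 3471 mutant reads, or 1140 and 664 CPM, and was 1.72-fold lower (1.65 to 1.79), a log2 ratio of -0.78. That value lies close to the median of the oogenic germline markers (-0.81), whose part in the result was not tested. With 99.9% and 99.8% of its listed sequence covered and a single annotated coding isoform, it is the best measured of the members. daf-18 alone made up 65.9% of the reads of all members in N2 and 61.8% in KU25. These are shares of reads, and several other members gave unique reads on only a small part of their sequence, as given below. Set against its opponent age-1, daf-18 had 4.28 reads for each age-1 read in N2 and 3.94 in KU25, a ratio of ratios of 0.92 whose interval reached 1 (0.837 to 1.01).

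pdk-1 (H42K12.1, chromosome X), the kinase that phosphorylates AKT, had 12 wild-type reads and 7 mutant reads. The ratio of 0.65 has an interval of 0.215 to 1.78, so a difference was not detectable at this depth. akt-1 (C12D8.10, chromosome V) had 214 reads against 146, and was 1.33-fold lower in CPM (1.07 to 1.65), a log2 ratio of -0.40. akt-2 (F28H6.1, chromosome X), which encodes the other AKT kinase, had 7 reads against 26, or 1.21 and 4.97 CPM. It was 4.11-fold higher in the mutant (1.74 to 11.2) and was the single listed member with a higher value there. It did not reach 50 reads; at a level of 10 reads it would be called higher, as were 22.1% of the 6940 genes at that level (2.26% were called lower), but it passes that level only through its mutant reads, so the call is not independent of the difference. The median log2 ratio of the pooled somatic markers, 1.13, lay within the akt-2 interval of 0.80 to 3.49 on that scale. So did the separate medians of the muscle (1.249), pharynx (1.496), neuron (1.016) and intestine (0.835) markers. The median of the 4 hypodermis genes, 0.297, lay below that interval. The part of the somatic markers in the result was not tested.

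Reads of akt-1 and akt-2 can be set against each other without any scaling of the libraries. akt-2 held 3.17% of the reads of both genes in the wild type (interval 1.28 to 6.42) and 15.1% in the mutant (10.1 to 21.4). These intervals do not overlap, and the ratio of ratios was 5.42 (2.22 to 15.2). The pair was chosen after the data were seen, and akt-2 had only 7 and 26 reads. These figures restate the akt-2 difference and are no separate support for it. Within akt-1, isoforms a and b each have a stretch of coding sequence that the other lacks, of 192 and 207 bases in the WBcel235 annotation. Isoform a had 212 reads in N2 and 137 in KU25, and isoform b had 2 and 9. Isoform b therefore took 0.935% of akt-1 reads in the wild type (0.113 to 3.34) and 6.16% in the mutant (2.86 to 11.4), and these intervals overlap. The ratio of ratios was 6.93 (1.40 to 66.9), from 11 reads of isoform b in all.

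sgk-1 (W10G6.2, chromosome X), the kinase through which the second TOR complex acts, was listed with 1 read in the wild type and none in the mutant. No fold is given, since 0 reads are compatible with up to 3, or 0.574 CPM in the mutant library, and 1 read lies below the same limit of 0.519 CPM for the wild type. daf-15 (C10C5.6, chromosome IV), the Raptor gene of the first TOR complex, had 30 reads against 21, with a ratio of 0.77 and an interval of 0.421 to 1.40. Its isoforms a and b had 2 and 28 reads in the wild type and 4 and 17 in the mutant. rict-1 (F29C12.3, chromosome II), the Rictor gene of the second complex, had 829 reads against 505, or 143 and 96.5 CPM, and was 1.48-fold lower (1.33 to 1.66). All rict-1 reads were listed under isoform c, of which they covered 98.5% and 97.6%. The longer isoforms a and b of the annotation were not listed.

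**Figure D2:**
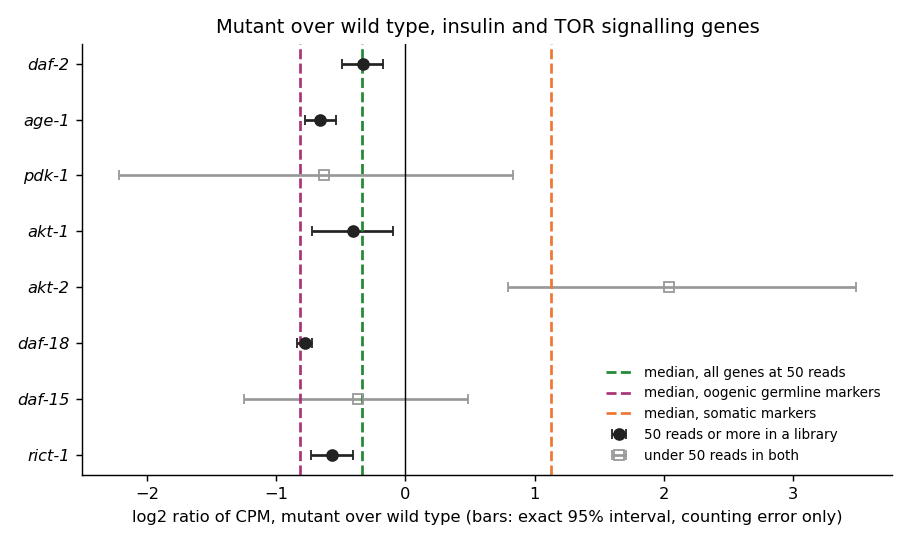
log2 ratio of CPM, mutant over wild type, for the 8 members with reads in both libraries, with exact 95% intervals; filled circles reached 50 reads in a library and open squares did not. The 5 filled points lie between -0.78 and -0.33, between the medians of oogenic germline markers (-0.81) and somatic markers (1.13), and akt-2 lies on the side of the somatic markers.

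The 5 members at the level of 50 reads did not all differ by the same factor between these 2 libraries, as far as counting error alone is concerned. Their 10 pairs were compared by the ratio of their read ratios, which no scaling of the libraries can change. Of their intervals, 5 excluded 1, with no adjustment for the number of pairs, which share the same genes. The intervals leave out variation between libraries. The share among pairs of all genes was not computed, so this count is not a trait of the members. daf-18 had a smaller mutant-to-wild-type ratio than daf-2 (ratio of ratios 0.73, 0.651 to 0.824), akt-1 (0.77, 0.619 to 0.963) and rict-1 (0.86, 0.767 to 0.974). age-1 (0.80, 0.693 to 0.916) and rict-1 (0.85, 0.723 to 0.993) also had smaller ratios than daf-2. Between the neighbours in this order, daf-18 and age-1, age-1 and rict-1 (0.94, 0.817 to 1.08), rict-1 and akt-1 and akt-1 and daf-2 (0.95, 0.743 to 1.21), the intervals held 1.

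The part of a listed sequence that unique reads covered differed widely among the members. Of the 13 listed sequences of the members, 3 were covered over more than 97% of their length in both libraries, those of age-1, daf-18 and rict-1. Another 9 were covered over less than 20%, all sequences of pdk-1, akt-1, akt-2, sgk-1 and daf-15 and isoform b of daf-2. Except for daf-18, each of the 10 members has at least 2 coding isoforms in the WBcel235 annotation. In that annotation, pdk-1 isoform b has 12 coding bases that isoform a lacks, sgk-1 isoform b has 30, and the let-363 isoforms differ by 9. For akt-1 isoform a, 11.6% of the coding bases are in no other isoform and wild-type reads covered 16.3% of what is listed. For akt-2 isoform a these figures were 11.3% and 10.2%. The 28 wild-type reads of daf-15 isoform b covered 1.94% of a listed length of 5349 bases, and a single sgk-1 read covered 49. The correspondence was not complete, since the WBcel235 annotation gives rict-1 isoform c and daf-2 isoform a no base of their own although reads covered much or nearly all of them. The annotation the authors counted on is not given in the sources used here.

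**Figure D3:**
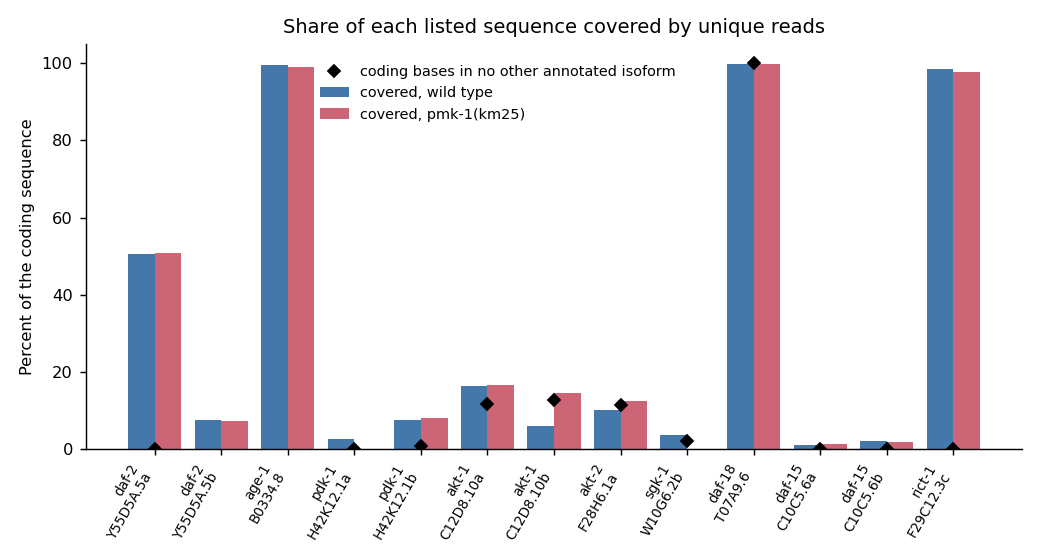
Percent of each listed coding sequence covered by unique reads in the wild type (blue bars) and in pmk-1(km25) (red bars), with black diamonds for the percent of coding bases that the WBcel235 annotation puts in no other isoform; daf-2 isoform b and the age-1 ID have no diamond because those IDs are not in it. The sequences of age-1, daf-18 and rict-1 were covered over more than 97%, that of akt-1 isoform a over 16.3% and those of daf-15 over less than 2% of their length.

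Coverage also differed with the number of isoforms across the series. Among genes with at least 200 reads on their main ID in the wild type, 97.3% of the 2459 with 1 annotated coding isoform were covered over at least 90% of the listed length. Of the 693 with 2 or more isoforms, 68.4% were, and 6.06% were covered over less than 25%, against 0.244% of the genes with 1 isoform. The counts of pdk-1, sgk-1 and daf-15 were low and came from a small part of each sequence. They set no order of abundance among the members. Few reads cover few bases in any case, and how much of pdk-1 or sgk-1 could be counted was not tested. Per kilobase of listed length, the wild-type RPKM that the authors deposited was 395 for daf-18 (Poisson interval 385 to 404), 75.01 for age-1 (71.3 to 78.9), 62.1 for rict-1 (58.0 to 66.5), 24.03 for daf-2 isoform a (22.4 to 25.8) and 22.5 for akt-1 isoform a (19.6 to 25.8). The last 2 values do not differ beyond counting error. In the mutant the order was the same, with 230 for daf-18, 47.5 for age-1, 41.9 for rict-1, 19.1 for daf-2 isoform a and 16.1 for akt-1 isoform a. Below these came pdk-1 isoform b, daf-15 isoform b and akt-2 isoform a, at 0.995, 0.905 and 0.763 RPKM in the wild type. Their Poisson intervals overlapped (0.497 to 1.78, 0.601 to 1.31 and 0.307 to 1.57), so these values set no order. In the mutant the same sequences were at 0.700, 0.608 and 3.13 RPKM. Per kilobase of covered length, a scale added with the values in view, the wild-type value per 1 M reads was 138 for akt-1 isoform a, above 75.3 for age-1, 63.1 for rict-1, 47.6 for daf-2 isoform a and 46.6 for daf-15 isoform b. The place of akt-1 and daf-15 among the members therefore depends on which length is used, while daf-18 was highest on either, at 395.

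Around the members, the pathway genes fell into those that lay with or below the middle of all genes and those that lay above it. The counts that follow use lists of pathway genes with textbook roles, described and not tested. For the ligands, 20 of 39 insulin-like peptide genes whose symbols the annotation holds were listed, most with under 20 reads, and together they had 92 wild-type and 229 mutant reads, or 15.9 and 43.8 CPM. ins-27 was the single ligand gene with 50 reads, with 37 against 100 reads, a 2.99-fold higher value (2.03 to 4.48). It reached that level through its mutant reads alone, so its call is no support for a direction of the ligands. daf-28, a main agonist of DAF-2, was not listed. Of 8 receptor-proximal genes, 4 were at the level, with a median log2 ratio of -0.43. None of them was called, where 17.6% of all genes were called higher and 1.75% lower. The 4 included paa-1 and let-92, subunits of the phosphatase PP2A, at 1.26-fold (1.20 to 1.32) and 1.43-fold (1.32 to 1.55) lower.

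For the FOXO branch, daf-16 had 45 reads against 52, a ratio of 1.28 with an interval of 0.841 to 1.95, from reads on 33.7% of its main sequence in the wild type. Of the 10 genes of that list at the level none was called, where 17.6% of all genes were called higher and 1.75% lower. The median log2 ratio was -0.42. Intervals lay below 1 for 6 of them and above 1 for 2, near the shares of all genes, 53.6% and 30.2%. Those 2, named after their values were seen, were pqm-1, a transcription factor gene linked to DAF-16 (450 reads against 613, 1.51-fold higher, 1.33 to 1.71), and ftt-2, which encodes a 14-3-3 protein that holds DAF-16 in the cytoplasm (345 against 436, 1.40-fold higher, 1.21 to 1.61). prmt-1, an arginine methyltransferase that acts on DAF-16, was 1.76-fold lower (1.67 to 1.85), hcf-1, a nuclear partner that restrains DAF-16, 1.65-fold lower (1.55 to 1.76) and ddl-1, a regulator of the heat shock factor, 1.61-fold lower (1.25 to 2.09). Genes known to be raised by DAF-16 lay above 0. Of 9 such genes at the level, 4 were called higher and none lower, against 17.6% and 1.75% of all genes, and their median log2 ratio was 0.91, against -0.33 for all genes. 2 of the 4, dod-6 and sod-3, reached 50 reads only through the mutant library, where they were high. With 50 reads required in the wild type, 2 of 7 were called higher, where 9.05% of 4598 genes were called higher and 1.98% lower, and the median was 0.87. Somatic markers at 50 reads in either library also lay above 0, with a pooled median of 1.13. Called higher were 7 of 9 muscle, 4 of 4 pharynx, 4 of 7 neuron, 2 of 6 intestine and 1 of 4 hypodermis genes. The rise is thus not particular to the targets of DAF-16. dod-6, with 43 reads against 168, was 4.32-fold higher (3.07 to 6.19). icl-1, the glyoxylate cycle gene, had 87 against 329 and was 4.18-fold higher (3.29 to 5.36), from reads on 12.5% of its main sequence. sod-3, the mitochondrial superoxide dismutase gene widely used to report DAF-16 activity, had 20 against 54 and was 2.99-fold higher (1.76 to 5.27).

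Of 11 markers of the intestine, where many of these targets are expressed, whose symbols the annotation holds, 10 were listed, with a median log2 ratio of 0.83 over 6 genes at the level and a summed level of 2938 CPM in N2 and 5637 CPM in KU25, and their part in the result was not tested. mtl-2 is on both lists. The defining intestinal gene ges-1 was not listed and elt-2 had 24 reads against 15. In bulk RNA, more or fewer cells of a type and more or less RNA per cell cannot be told apart. Of genes known to be lowered by DAF-16, 5 were at the level, with a median log2 ratio of 0.61. Only dod-24 was called, lower (66 reads against 1), where 1.75% of all genes were called lower and 17.6% higher. dod-24 belongs also to the immune genes that depend on PMK-1. dod-23 was 1.80-fold (1.45 to 2.26) and vit-2 1.87-fold (1.83 to 1.90) higher, the latter from reads on 5.23% of its sequence.

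Genes around the first TOR complex lay mostly lower in the mutant, as did most genes of the series under this scaling. Of 20 genes on this list, 17 were listed and 15 at the level, with a median log2 ratio of -0.53. None was called in either direction, where 17.6% of all genes were called higher and 1.75% lower. Intervals lay below 1 for 11 of the 15 and above 1 for none, against 53.6% and 30.2% of all genes. ife-3, which encodes a cap-binding translation initiation factor, was lowest with 2959 reads against 1380, 1.94-fold lower (1.82 to 2.07), followed by clk-2, the homologue of the TOR-stabilising factor TEL2, at 1.83-fold (1.64 to 2.04) and nprl-2, a subunit of a complex that restrains TOR in response to amino acid lack, at 1.67-fold (1.47 to 1.89). rheb-1 and raga-1, the small GTPases that activate the complex, were 1.34-fold (1.13 to 1.59) and 1.38-fold (1.21 to 1.57) lower. rsks-1, the S6 kinase gene downstream of TOR, and mlst-8, a subunit of both complexes, were not listed. Of the list for the second complex only pkc-2 was listed, with 23 reads against 43.

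The AMP-activated kinase opposes TOR when energy is short. Of its 14 genes, 6 were at the level, with a median log2 ratio of -0.25. None was called, where 17.6% of all genes were called higher and 1.75% lower. Those below 0 were its activating kinase and partners, with par-4 (LKB1) at 1.43-fold (1.31 to 1.57), strd-1 (STRAD) at 1.75-fold (1.49 to 2.07) and mop-25.2 at 1.63-fold (1.42 to 1.87). The subunit genes at the level, named after their values were seen, had log2 ratios above 0, at 0.01 for the catalytic aak-1, 0.16 for aakb-1 and 0.20 for aakg-2, each with an interval that held 1. aak-2, the other catalytic subunit gene, had 2 reads against 1, on under 3% of its sequence.

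**Figure D4:**
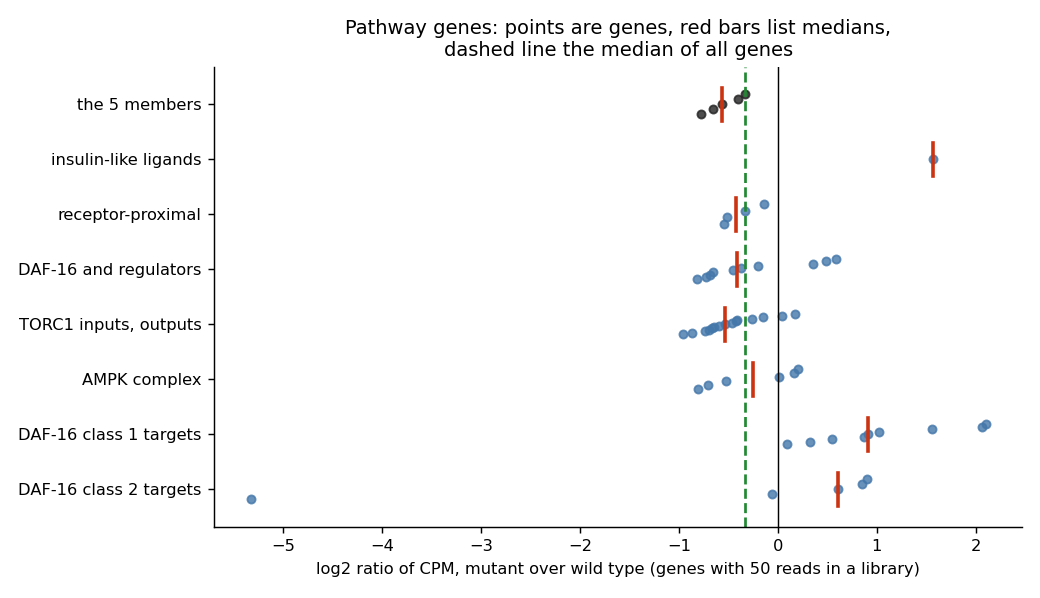
log2 ratio of CPM, mutant over wild type, for the 5 members and for pathway genes with 50 reads in a library; points are genes, red bars list medians and the dashed line the median of all genes (-0.33). The members, the receptor-proximal genes and the TORC1 genes lie mostly below 0, while targets raised by DAF-16 lie above 0 with a median of 0.91.

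The direction of the members rested on how the libraries were scaled. All 5 had log2 ratios below 0 with library totals and with TMM, median-of-ratios and upper-quartile factors. With median-of-ratios factors taken over genes at the 50-read level, 4 of 5 did, daf-2 being at 0.01. When the oogenic germline markers were set to a median of 0, all 5 lay above 0, from 0.03 for daf-18 to 0.48 for daf-2. When the pooled somatic markers were set to a median of 0, all 5 lay at least 2-fold lower and were called. They ran from -1.46 for daf-2 to -1.91 for daf-18, and the median of all genes was then -1.46. That pool mixes tissues with unlike medians, so the size of this shift depends on which somatic markers are taken. akt-2 stayed above 0 in each of these scalings, at 0.84 with the somatic markers at 0 and 1.97 with library totals. Its interval with library totals, 0.80 to 3.49, held the somatic median of 1.13. With those markers at 0 its direction was therefore within counting error.

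**Figure D5:**
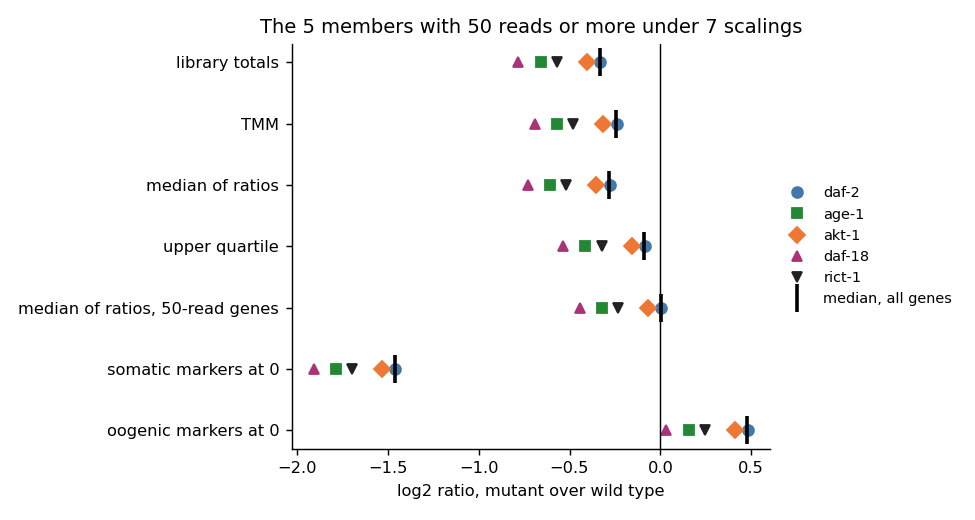
log2 ratio, mutant over wild type, of daf-2, age-1, akt-1, daf-18 and rict-1 under 7 scalings of the libraries, with black bars for the median of all genes at the 50-read level. Each scaling shifts all genes by the same amount, so the order of the 5 members cannot change, with daf-18 lowest and daf-2 at the median of all genes. All 5 members lie above 0 when oogenic markers are set to 0 and below -1.4 when somatic markers are.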

How the data were processed

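Per the labels' protocols, oligo(dT)-selected RNA was primed with random hexamers for Illumina HiSeq sequencing. The authors deposited raw counts of unique reads for each coding sequence, per the file headers, next to RPKM (counts scaled to listed length and library reads) and the percent of that length covered. Aligner, build, annotation and strand: not given in the sources used here. IDs were matched to the WBcel235 annotation for names, chromosomes and isoform structure (9383 of 9430), and IDs of 1 gene were summed. Absence of an ID from 1 library was read as 0 reads, an assumption. The 2 libraries hold 5784560 and 5230459 reads.

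Ratios of CPM have exact conditional binomial intervals and log2 ratios a prior of 0.5 reads (Python 3.11.15, scipy 1.17.1). Shares have Clopper-Pearson intervals, and ratios of ratios exact conditional odds-ratio intervals. Scaling factors came from edgeR 4.0.16 and DESeq2 1.42.0, with no test. The interval and call steps were tested on simulated data. The members and lists were chosen with earlier results of these data known. Named genes are all members, up to 3 genes per list with the largest absolute log2 ratio at 50 reads, and daf-16, rheb-1, raga-1, rsks-1 and aak-2; other genes were named after their values were seen. Isoform shares and read balances were also chosen after the data were seen.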

Additional observations from a re-analysis of the deposited data

How the results depend on the processing

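With library totals, 0 of the 5 members at 50 reads were called, their median log2 ratio was -0.57 and 5 had a ratio below 1. With TMM and median-of-ratios factors, with the ID with the most reads, the deposited RPKM, a level of 100 reads and a prior of 5 reads, the median and the counts that apply stayed within the members' spread or were equal. The median was -0.32 with upper-quartile factors, and -0.23 with median-of-ratios factors over genes at the 50-read level, a scaling added after the data were seen. With somatic markers at 0 the median was -1.70 and 5 members were called lower. With oogenic markers at 0 the median was 0.24 and 0 members had a ratio below 1. The 1.5-fold threshold called 2 members, both lower. With no level filter, and with a level of 10 reads, 1 member (akt-2) was called, higher. With 50 reads required in the wild type, a choice added with the values in view, 2 rather than 4 targets raised by DAF-16 and 0 rather than 1 ligand were called higher. Of 45 recomputed log2 ratios of single members, 39 were below 0 and 6 above, and 20 lay outside the member's counting interval with library totals, among them daf-18 with TMM factors. The cause of these shifts is the scaling or threshold itself. Low counts limit pdk-1, sgk-1 and daf-15, whose reads lie on a small part of each sequence. No paired analysis was possible because each genotype has 1 library, and for the same reason no replicate could be left out.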
